A study of Homo sapiens with 8 samples.

Results

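The clade B serpins examined here are 10 genes of the ovalbumin-like branch of the serpin family, SERPINB1, SERPINB2, SERPINB3, SERPINB4, SERPINB5, SERPINB6, SERPINB7, SERPINB8, SERPINB9 and SERPINB13, out of 29100 genes with a row in the table of either cell line. Their rows were found by gene symbol. All 10 had a row in KYSE510 and 6 had one in KYSE30. Of these, 8 and 5 passed the filter on low mean levels and carry an adjusted p. KYSE30 and KYSE510 are established lines of human esophageal squamous cell carcinoma (ESCC). Cells of each line carried a lentiviral pSIH-H1 hairpin after puromycin selection, aimed at LHX2 (shLHX2) or a control (shNC), and each group of each line gave 2 libraries of total RNA (8 libraries). The sources used here do not say which of the LHX2 hairpins each shLHX2 library carries, nor that libraries of a group are of separate cultures, and the p-values cover the spread between these libraries alone. LHX2 encodes a LIM-homeodomain transcription factor, and the comparison asks which transcripts change when it is silenced.

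Serpins are protease inhibitors that offer a mobile loop as bait, change shape when the loop is cut and trap the protease. Most serpins are secreted, whereas clade B members lack a classical signal peptide and act largely inside the cell, where they guard against proteases that leak from lysosomes or granules. Squamous epithelium is rich in several of them. SERPINB3 and SERPINB4 were first known as the squamous cell carcinoma antigens, and SERPINB5 (maspin) has the fold but does not inhibit proteases.

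The members lie in 2 genomic clusters of GRCh38 as annotated by GENCODE 29. The chromosome 6 cluster holds SERPINB1, SERPINB9 and SERPINB6 within 139.8 kb (chr6:2832332-2972165), all on the minus strand. The chromosome 18 cluster spans 543.0 kb (chr18:63476761-64019779) and holds 10 SERPINB genes in the order SERPINB5, SERPINB12, SERPINB13, SERPINB4, SERPINB11, SERPINB3, SERPINB7, SERPINB2, SERPINB10 and SERPINB8, of which 7 are members. SERPINB4 and SERPINB3 lie on the minus strand and the others on the plus strand. Some of these genes share ground: SERPINB11 (chr18:63647579-63726432) spans SERPINB3 (chr18:63655197-63661963) on the opposite strand, SERPINB2 and SERPINB10 overlap on the same strand, and HMSD overlaps SERPINB8. The sources used here do not state whether reads were counted by strand.

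SERPINB3 and SERPINB4 are shown first because their sequences limit how well reads can be told apart. Their coding regions, 1173 bases each in GENCODE 29, were identical at 1117 positions (95.2%) and differed at 56. The lines below give bases 952 to 1011 counted from the first base of the start codon, a window with 10 differences, which are in capitals.
SERPINB3: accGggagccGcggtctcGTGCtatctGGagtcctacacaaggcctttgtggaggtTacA
SERPINB4: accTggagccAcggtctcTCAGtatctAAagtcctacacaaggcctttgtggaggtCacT
Away from such windows the copies can be alike over a read's length. Of all 50-base windows of the SERPINB3 coding region, 23.1% occurred unchanged in that of SERPINB4, as did 9.92% of 75-base windows, 4.10% of 100-base windows and 0 of 1024 windows of 150 bases. The sources used here do not state the read length, so the split of reads between this pair is uncertain. No other pair came close: the remaining 20 pairs within chromosome 18 were 54.1 to 68.3% identical, and the 3 pairs within chromosome 6 were 58.1 to 71.7% identical. Likeness did not follow the clusters, and the most alike of the pairs left was SERPINB8 of chromosome 18 with SERPINB9 of chromosome 6 (73.3%).

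The promoters of SERPINB3 and SERPINB4 are printed because they too are near copies. Each runs from 250 bases before to 50 bases after the start given by RefSeq on GRCh38.p14, at chr18:63661844-63662143 and chr18:63644207-63644506, both on the minus strand. They were identical at 296 of 300 bases, and the 4 that differ are in capitals.
SERPINB3 promoter: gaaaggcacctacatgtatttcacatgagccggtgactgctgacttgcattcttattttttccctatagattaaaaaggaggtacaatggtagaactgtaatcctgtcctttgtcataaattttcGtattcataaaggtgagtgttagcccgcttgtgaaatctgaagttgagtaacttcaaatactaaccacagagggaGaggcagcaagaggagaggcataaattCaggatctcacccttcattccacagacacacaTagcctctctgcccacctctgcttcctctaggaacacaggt
SERPINB4 promoter: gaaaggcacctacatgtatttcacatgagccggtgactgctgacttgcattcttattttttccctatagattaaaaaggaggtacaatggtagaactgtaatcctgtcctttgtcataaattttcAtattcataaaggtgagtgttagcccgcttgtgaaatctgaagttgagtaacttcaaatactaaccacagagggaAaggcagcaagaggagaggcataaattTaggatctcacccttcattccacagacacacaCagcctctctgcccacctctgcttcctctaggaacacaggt

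The promoter of SERPINB5 is printed because SERPINB5 was the member called in both lines. It lies at chr18:63476708-63477007 on the plus strand (RefSeq, GRCh38.p14), and its capitals mark a match to TGANTCA, which begins 146 bases before the RefSeq start. TGANTCA, with any base at N, is a loose form of the AP-1 site bound by FOS and JUN proteins, and here N is A.
SERPINB5 promoter: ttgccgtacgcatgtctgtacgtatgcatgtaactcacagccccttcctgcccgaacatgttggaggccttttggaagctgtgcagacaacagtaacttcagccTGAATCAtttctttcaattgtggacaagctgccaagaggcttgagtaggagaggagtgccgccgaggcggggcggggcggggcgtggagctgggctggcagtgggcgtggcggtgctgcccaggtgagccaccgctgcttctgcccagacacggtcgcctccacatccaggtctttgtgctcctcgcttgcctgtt
TGANTCA was found on either strand in 6 of the 15 RefSeq promoters of the members, those of SERPINB5, SERPINB13, SERPINB2, SERPINB8 and, in 2 alternative promoters, SERPINB7. It occurs in 7.71% of all 35116 promoters of the same length. TAATTA, a core often bound by LIM-homeodomain proteins, was in 0 of 15, against 4.84% of all promoters. TATAAA, the TATA box letters, was in 6 of 15, against 11.5%. A match is a letter pattern and not a measured site. Matches of different patterns did not overlap. The promoters on chromosome 18 were poorer in CpG than those on chromosome 6, with some overlap: the 9 on chromosome 18 held 0 to 16 CpG (median 2) and the 6 on chromosome 6 held 7 to 45 (median 33.5), where the median of all promoters was 14. Those 6 belong to 3 genes, and most are alternative promoters of SERPINB6 that partly overlap. SERPINB7 also has several, so these promoters are not independent of each other.

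The silencing itself was first examined through LHX2. In KYSE30 the reads of LHX2 were 32 and 50 in the shLHX2 libraries and 99 and 112 in the shNC libraries, a log2 fold change of -1.45 (SE 0.34, deposited DESeq2 Wald test, adjusted p 1.23e-04). In KYSE510 LHX2 was near the limit of detection, with 13 and 1 reads against 14 and 8, and its log2 fold change of -0.97 (SE 1.16) had no adjusted p. The groups overlapped, and these libraries do not show the knockdown in KYSE510 at this depth. The paper describes both lines as high in endogenous LHX2. It reports knockdown efficiency in both by qRT-PCR and Western blotting, which are other measures than these reads. SERPINE2, the clade E serpin that the study follows, was lower in both lines, with log2 fold changes of -1.77 (SE 0.16) and -1.23 (SE 0.11). The mean normalized counts of a library added up to 1.89e+07 in KYSE30 and 1.92e+07 in KYSE510, and size factors ran from 0.946 to 1.08 and from 0.902 to 1.20. Some squamous markers differed widely between the lines and others did not. KRT5, a basal keratin and an extreme of the list, had a mean normalized count of 12.9 in KYSE30 and 30946 in KYSE510. TP63, the master regulator of squamous identity, reached 2349 and 7681. KRT14 went the other way, at 151 and 126, and CDH1 (8141 and 7342) and PERP (10448 and 10773) were close. Of the squamous markers tested, 7 of 11 were lower with shLHX2 in KYSE30 and 8 of 11 in KYSE510, with median log2 fold changes of -0.23 and -0.38. The shares of all genes tested that were called lower were 15.7% and 10.8%. Markers of immune, endothelial and fibroblast cells summed to 596 in KYSE30 and 1478 in KYSE510. The largest parts were COL1A1 (268 and 739), CDH5 (157 and 239) and CD68 (99.1 and 379), while PTPRC was at 6.01 and 1.83. Of those tested, 4 of 6 were lower in KYSE30 and 1 of 4 in KYSE510 (medians -1.18 and -0.13), beside the same shares of all genes. The part of either marker list in the serpin values was not tested.

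The lines held different sets of clade B serpins. In KYSE30 the transcripts were mostly SERPINB5, which took 65.1% of all normalized counts of the members, followed by SERPINB6 (22.4%) and SERPINB1 (9.56%). In KYSE510 they were spread over SERPINB3 (19.8%), SERPINB1 (17.7%), SERPINB6 (17.6%), SERPINB4 (14.4%), SERPINB13 (12.3%) and SERPINB5 (11.1%). The chromosome 18 members together made up 68.0% of the counts in KYSE30 and 64.8% in KYSE510. In bulk RNA, fewer cells with a transcript and less of it per cell cannot be told apart.

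Levels were set across the lines per summed mean normalized count, although the tables were normalized separately, so these ratios were not tested and their 95% intervals cover counting error only. SERPINB13 (headpin), an inhibitor of cathepsins L and K, had 13 reads over the 4 KYSE30 libraries and 5945 over the 4 of KYSE510, a level 448 times higher in KYSE510 (interval 262 to 841). SERPINB7 (megsin), whose loss causes a palmoplantar keratosis, was 19.2 times higher (15.3 to 24.5). SERPINB1, an inhibitor of neutrophil elastase, was 6.01 times higher (5.68 to 6.36), SERPINB8, an inhibitor of furin, 5.59 times (4.97 to 6.30) and SERPINB6, an inhibitor of cathepsin G, 2.54 times (2.44 to 2.64). Only SERPINB5 of the measured members ran the other way, at 0.556 times the KYSE30 level (0.537 to 0.575).

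SERPINB3 and SERPINB4 were abundant in KYSE510 alone. Both had no row in the KYSE30 table used here, in which no gene with an adjusted p is missing by the arithmetic of its adjusted p values, so their mean normalized count there could be at most 6.90, the lowest mean tested. In KYSE510 their means were 2369 and 1719, at least 338-fold and at least 246-fold higher than in KYSE30, taking that limit as the KYSE30 mean and each level per summed count. Among 3092 genes with a row in KYSE510 alone, SERPINB3 and SERPINB4 ranked 1 and 2 by mean level, ahead of SLC6A15 at 1045. SERPINB2 (PAI-2), an inhibitor of urokinase, and SERPINB9, an inhibitor of granzyme B, also had no row in KYSE30, and were barely detected in KYSE510. SERPINB2 had 1 and 6 reads in the shLHX2 libraries and 9 and 5 in the shNC libraries, and SERPINB9 had 0 and 2 reads against 0 and 0. The clade B genes that are not members were as rare: SERPINB10 had 2 and 31 reads in all 4 libraries of KYSE30 and KYSE510, SERPINB12 had 1 and 7, and SERPINB11 had no row in KYSE30 and 1 read in KYSE510.

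**Figure D1:**
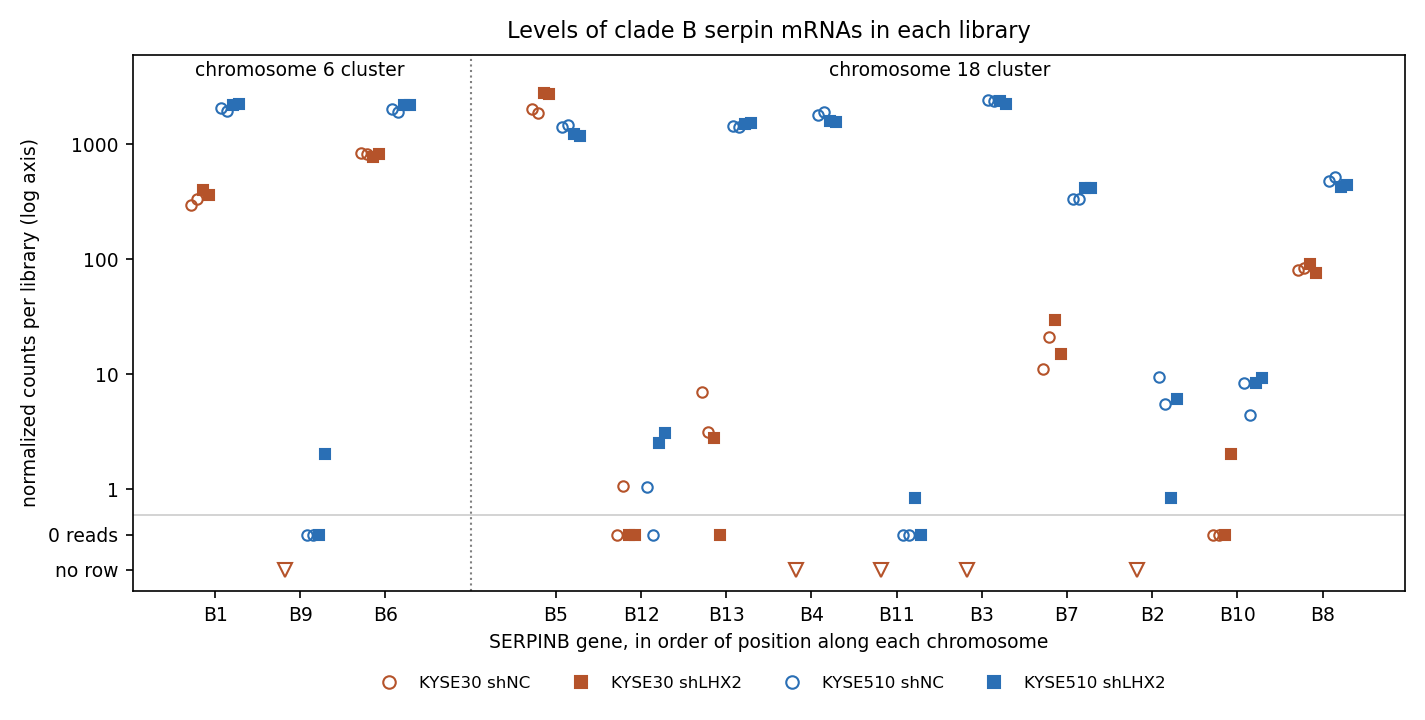
Normalized counts per library on a log axis for the 13 SERPINB genes in order along chromosomes 6 and 18, with shNC libraries as open circles and shLHX2 libraries as filled squares, KYSE30 in brown and KYSE510 in blue; the bottom rows hold libraries with 0 reads and genes with no row in KYSE30. SERPINB3, SERPINB4 and SERPINB13 sit above 1000 in every KYSE510 library and are at or near the bottom in KYSE30, whereas SERPINB5 is the member that is higher in KYSE30.

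Per kilobase of merged exon, the order of the members also differed between the lines. In the shNC libraries of KYSE30 the mean normalized count per kilobase was 498 for SERPINB5, 101 for SERPINB1, 62.9 for SERPINB6, 13.9 for SERPINB8, 6.10 for SERPINB7 and 1.12 for SERPINB13. In those of KYSE510 it was 1360 for SERPINB3, 928 for SERPINB4, 646 for SERPINB1, 369 for SERPINB5, 314 for SERPINB13, 151 for SERPINB6, 127 for SERPINB7, 85.2 for SERPINB8 and 2.73 for SERPINB2. No neighbours in either order overlapped in their shNC libraries. The value of SERPINB6 is low for its counts because its annotated exons merge to 13.2 kb, against 1.78 to 5.87 kb for the other members.

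The response to LHX2 silencing was small in most members. In KYSE30, 1 of the 5 tested members was called higher by the deposited DESeq2 Wald test at an adjusted p under 0.05, beside 13.9% of the 15923 genes tested, and 0 were called lower, beside 15.7% (2 higher and 0 lower at an unadjusted p under 0.05). In KYSE510, 0 of the 8 tested members were called higher, beside 7.89% of 12676 genes, and 2 were called lower, beside 10.8% (2 higher and 2 lower unadjusted). In either direction this is 1 of 5 against 29.6% of genes in KYSE30 and 2 of 8 against 18.7% in KYSE510. No member passed with a change of at least 1.5-fold as well, which 7.89% of genes did in KYSE30 and 3.64% in KYSE510. The median log2 fold change of the tested members was 0.28 in KYSE30 and 0.02 in KYSE510, beside 0.0035 and -0.0017 over all genes tested.

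SERPINB5 (chr18:63476761-63505085), known as a tumour suppressor in breast epithelium and abundant in squamous cells, rose in KYSE30 and fell in KYSE510. In KYSE30 its normalized counts were 2808 and 2719 in the shLHX2 libraries and 2046 and 1880 in the shNC libraries. Both shLHX2 libraries lay above both shNC libraries. The log2 fold change was 0.49 (SE 0.06, 95% interval 0.38 to 0.61, adjusted p 3.71e-16), or 141% of the shNC level (130 to 152%). In KYSE510 the SERPINB5 counts were 1230 and 1194 with shLHX2 and 1421 and 1484 with shNC. Here both shLHX2 libraries lay below both shNC libraries. The log2 fold change was -0.26 (SE 0.09, interval -0.43 to -0.09, adjusted p 0.0222), or 83.5% of shNC (74.0 to 94.2%). In the counts of each line's own table, the shNC means were 1963 in KYSE30 and 1452 in KYSE510, and the shLHX2 means were 2764 and 1212.

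The SERPINB5 responses differed between the lines by -0.75 on the log2 scale (KYSE510 less KYSE30, SE 0.11, interval -0.96 to -0.55, adjusted p 9.65e-11 by a z test of the fold changes, Benjamini-Hochberg over 12311 genes). It was the 1 member of 5 tested in both lines whose responses differed, beside 11.9% of all genes. Of the 12311 genes, 1425 were called in both lines, as SERPINB5 was. Among those 1425, the calls were in opposite directions for 144 (1.17% of the 12311). They were higher in KYSE30 with lower in KYSE510, as for SERPINB5, for 90 (0.731% of the 12311). For the other 4 the interval of the difference held 0: -0.42 to 0.18 for SERPINB1, -0.01 to 0.42 for SERPINB6, -1.5 to 1.16 for SERPINB7 and -0.83 to 0.38 for SERPINB8. The last pair of intervals is wide, since SERPINB7 had only 78 reads and SERPINB8 only 333 in KYSE30.

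**Figure D2:**
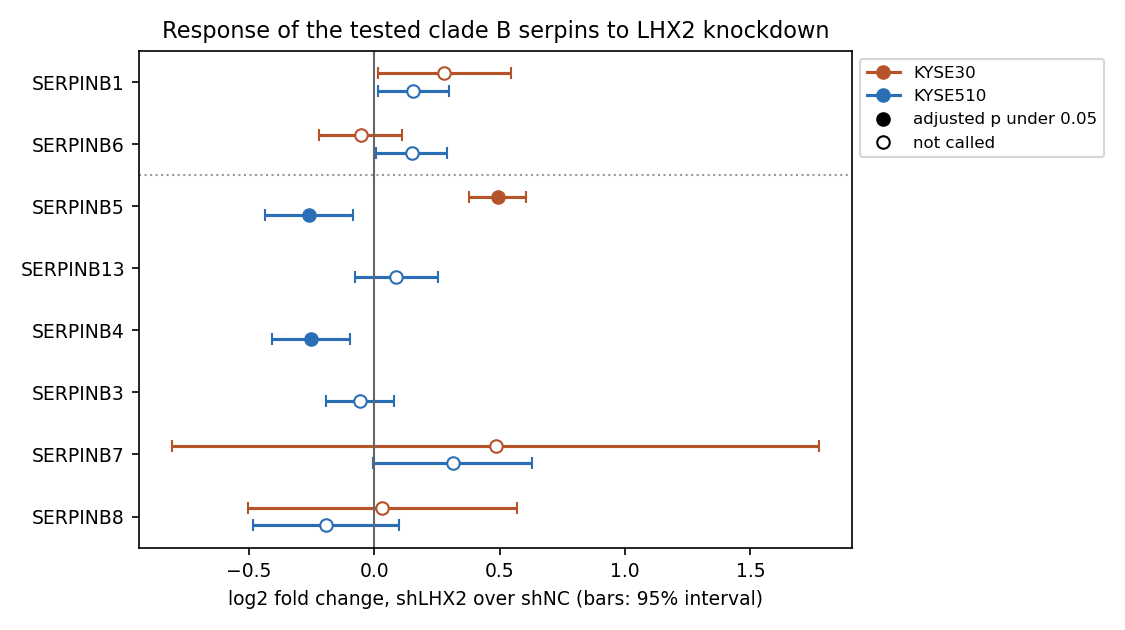
Log2 fold change of shLHX2 over shNC with its 95% interval for the tested clade B serpins, chromosome 6 members above the dotted line and chromosome 18 members below it, KYSE30 in brown and KYSE510 in blue, filled where the adjusted p is under 0.05. SERPINB5 is filled in both lines on opposite sides of 0 (0.49 and -0.26), and SERPINB4 is filled below 0 in KYSE510 (-0.25).

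SERPINB4 (chr18:63637259-63644298), an inhibitor of cathepsin G and mast cell chymase, fell in KYSE510. Its normalized counts were 1588 and 1551 with shLHX2 and 1813 and 1925 with shNC, with no overlap between groups. The log2 fold change was -0.25 (SE 0.08, interval -0.41 to -0.10, adjusted p 0.0120), or 84.0% of shNC (75.4 to 93.6%). SERPINB3, its near copy and an inhibitor of cathepsins L, S and K, had counts of 2381 and 2260 with shLHX2 and 2456 and 2377 with shNC. Its groups overlapped, and the log2 fold change of -0.06 (SE 0.07, interval -0.19 to 0.08) had an adjusted p of 0.66.

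As a share of the reads of this pair, SERPINB4 took 40.0% (95% Wilson interval 38.6 to 41.4) and 40.7% (39.1 to 42.3) in the shLHX2 libraries and 42.5% (41.0 to 44.0) and 44.7% (43.2 to 46.3) in the shNC libraries. Both shLHX2 shares lay below both shNC shares, although the higher shLHX2 interval overlapped the lower shNC interval. With 2 libraries a group an exact permutation test cannot go below 0.333, so the shares are given as a description and no difference between the responses of SERPINB3 and SERPINB4 is claimed. Reads that match both genes could be assigned to either, and their part in these shares was not tested.

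SERPINB13 and SERPINB7, also of the chromosome 18 cluster, had higher values with shLHX2 in KYSE510 but were not called. SERPINB13 had normalized counts of 1493 and 1541 against 1433 and 1418, a log2 fold change of 0.09 (SE 0.08, adjusted p 0.55). SERPINB7 had 417 and 414 against 332 and 337, with close agreement within each group and a log2 fold change of 0.31 (SE 0.16, interval -0.0043 to 0.63, adjusted p 0.18). In KYSE30 SERPINB7 had 29.7 and 15.1 against 11.0 and 21.1, and the groups overlapped (log2 fold change 0.48, SE 0.66, adjusted p 0.65). SERPINB13 had 3 and 0 reads with shLHX2 in KYSE30 and 7 and 3 with shNC, too few for an adjusted p.

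SERPINB8, at the far end of the chromosome 18 cluster, showed no detectable change. Its normalized counts in KYSE30 were 90.9 and 76.3 with shLHX2 and 80.2 and 83.5 with shNC, so the groups overlapped (log2 fold change 0.03, SE 0.27, adjusted p 0.95). In KYSE510 the SERPINB8 counts were 428 and 447 against 476 and 524, both shLHX2 libraries being lower, with a log2 fold change of -0.19 (SE 0.15, adjusted p 0.43). HMSD, which overlaps SERPINB8, had a mean of 119 in KYSE510 and 0.528 in KYSE30, and its log2 fold change in KYSE510 was -0.15 (SE 0.33, adjusted p 0.84).

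On chromosome 6, SERPINB1 (chr6:2832332-2842006) had higher values with shLHX2 in both lines and was called in neither. In KYSE30 its normalized counts were 398 and 363 with shLHX2 and 296 and 332 with shNC, a log2 fold change of 0.28 (SE 0.14, p 0.0392, adjusted p 0.11). In KYSE510 the SERPINB1 counts were 2206 and 2250 against 2055 and 1943, a log2 fold change of 0.16 (SE 0.07, p 0.0311, adjusted p 0.12). Both shLHX2 libraries lay above both shNC libraries in each line. Centred on the median of the reference genes, the SERPINB1 values were 0.14 and 0.07.

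SERPINB6 (chr6:2948159-2972165) had near-equal groups in KYSE30, with normalized counts of 780 and 820 against 839 and 821 and a log2 fold change of -0.05 (SE 0.08, adjusted p 0.70). In KYSE510 SERPINB6 had 2221 and 2192 with shLHX2 and 2048 and 1930 with shNC, a log2 fold change of 0.15 (SE 0.07, p 0.0406, adjusted p 0.15). These 4 counts are the closer of 2 sets of reads that return the deposited values. SERPINB9, between SERPINB1 and SERPINB6, had 2 reads in all in KYSE510.

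**Figure D3:**
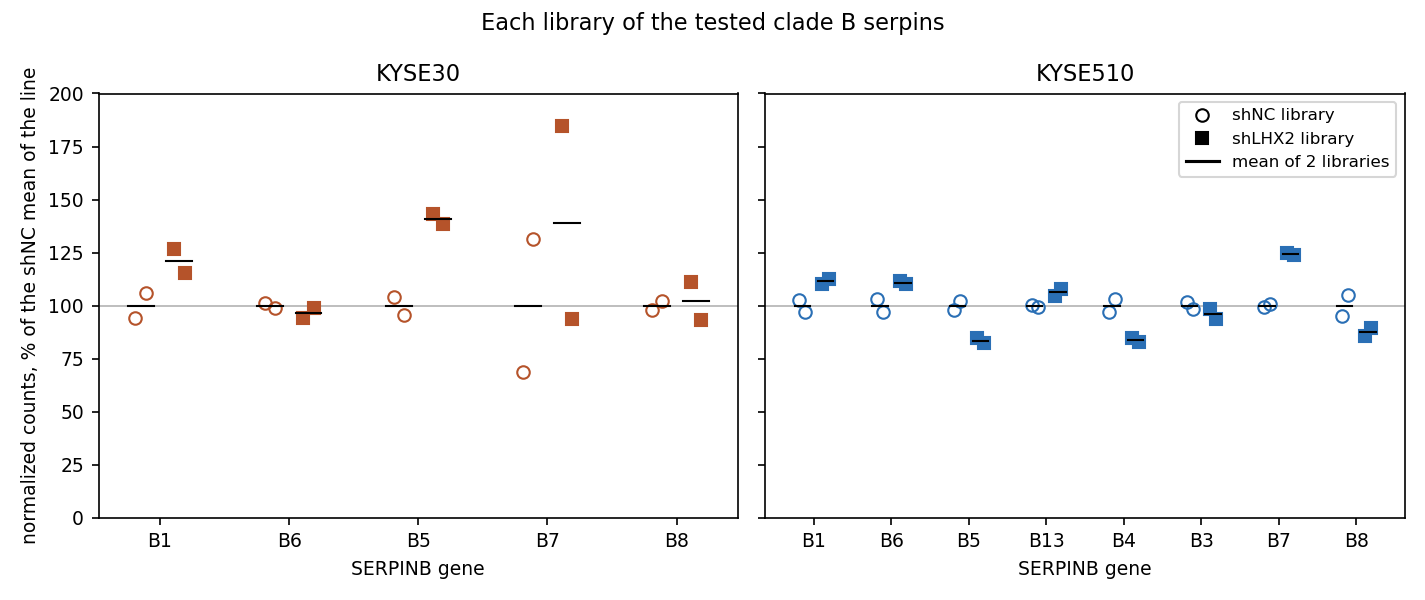
Normalized counts of each library as a percent of the shNC mean of its line, for the clade B serpins tested in KYSE30 (left) and KYSE510 (right), on axes that start at 0; circles are shNC libraries, squares are shLHX2 libraries and short lines are means of 2 libraries. SERPINB5 squares lie at 143 and 139% in KYSE30 and at 84.7 and 82.2% in KYSE510, SERPINB4 squares at 84.9 and 83.0%, and the SERPINB7 libraries of KYSE30 spread from 68.5 to 185%.

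Set beside each other, the clusters gave different sums. The summed normalized counts of the chromosome 6 members in KYSE30 were 1178 and 1182 with shLHX2 and 1134 and 1153 with shNC, a log2 ratio of group sums of 0.05. Those of the chromosome 18 members in KYSE30 were 2932 and 2811 against 2145 and 1988, a log2 ratio of 0.47, of which SERPINB5 supplied nearly all counts. In KYSE510 the chromosome 6 sums were 4427 and 4443 against 4103 and 3873, a log2 ratio of 0.15, and the chromosome 18 sums were 7538 and 7413 against 7940 and 8071, a log2 ratio of -0.10. The 6 chromosome 18 members tested in KYSE510 had log2 fold changes from -0.26 to 0.31, of which those of SERPINB4 and SERPINB5 were called, and the chromosome 6 members tested there were at 0.15 and 0.16, neither called. These sums are descriptions of 2 libraries a group, and no test was made of the clusters against each other.

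Among the genes that flank the chromosome 18 cluster, 1 of 5 tested was higher and 3 were lower in KYSE30 (median log2 fold change -0.21). Of all genes tested in KYSE30, 13.9% were called higher and 15.7% lower. KDSR, a sphingolipid enzyme, was higher in both lines, with log2 fold changes of 0.30 (SE 0.10, adjusted p 0.0111) and 0.33 (SE 0.12, adjusted p 0.0342). BCL2, the founding inhibitor of apoptosis, was lower in KYSE30 at -0.80 (adjusted p 0.00190), and its value in KYSE510 was -0.44 (adjusted p 0.37). VPS4B, an ESCRT ATPase, was lower in KYSE30 at -0.20 and had -0.13 in KYSE510 (adjusted p 0.50), and the cadherin gene CDH7 was lower in KYSE30 at -1.55. PHLPP1, a phosphatase of AKT, was at -0.21 in KYSE30 (adjusted p 0.0801) and 0.0063 in KYSE510. The 5 neighbours tested in KYSE510 included HMSD, which lies within the cluster, and not CDH7, which had no adjusted p there. Of those 5 in KYSE510, 1 was higher and 0 were lower (1 and 0 at an unadjusted p under 0.05), with a median of -0.13. The shares of all genes tested there were 7.89% higher and 10.8% lower.

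Around the chromosome 6 cluster, 1 of 10 tested neighbours was higher and 2 were lower in KYSE30, and 0 of 9 were higher and 4 were lower in KYSE510 (0 and 4 unadjusted), with medians of -0.10 and -0.23. All genes tested gave 13.9% higher and 15.7% lower in KYSE30, and 7.89% and 10.8% in KYSE510. WRNIP1, an ATPase of replication stress, was lower in both lines at -0.24 (adjusted p 0.0164) and -0.23 (adjusted p 0.0266). BPHL, a hydrolase, was higher in KYSE30 at 0.70 and was at -0.03 in KYSE510, and GMDS, an enzyme of GDP-fucose synthesis, was lower in KYSE30 at -0.32 and was at -0.27 in KYSE510. The tubulins TUBB2A and TUBB2B were lower in KYSE510 at -0.47 and -0.92, as was the forkhead gene FOXF2 at -0.53. In KYSE30 the same 3 genes were at -0.04, -0.28 and -0.18 and were not called. NQO2, RIPK1 and FOXC1 were called in neither line, with log2 fold changes of 0.20, 0.03 and -0.15 in KYSE30 and 0.24, -0.0040 and -0.14 in KYSE510. MYLK4 was not called in KYSE30 at 0.17 and had no adjusted p in KYSE510.

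Among proteases chosen as known or possible targets of clade B serpins, 2 of 11 tested were higher and 6 lower in KYSE30. In KYSE510, 0 of 12 were higher and 2 lower (1 higher and 3 lower unadjusted), and the medians were -0.25 in KYSE30 and -0.01 in KYSE510. All genes tested gave 13.9% higher and 15.7% lower in KYSE30, and 7.89% and 10.8% in KYSE510. PLAU, the urokinase that SERPINB2 inhibits, was lower in both lines at -0.82 (SE 0.05) and -0.72 (SE 0.10). KLK5, a kallikrein of skin desquamation, was lower in both at -1.11 (SE 0.25) and -1.10 (SE 0.21). In KYSE30 the cathepsins divided, with CTSL higher at 0.21 and CTSV and CTSS lower at -0.38 and -0.63, and CASP8 was higher at 0.46. None of these 4 was called in KYSE510. ELANE, CTSG, GZMA and GZMB, proteases of neutrophils and cytotoxic lymphocytes, had no row in either line, and the first, second and last of them are known targets of SERPINB1, SERPINB6 and SERPINB9.

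Protease inhibitors of other families gave further values for comparison. Beside both lists below, all genes tested gave 13.9% higher and 15.7% lower in KYSE30, and 7.89% and 10.8% in KYSE510. Of the serpins of other clades, 2 of 6 tested were lower in KYSE30 and 1 of 6 in KYSE510, and 0 were higher in either line (0 and 1 unadjusted), with medians of -0.28 and -0.17. SERPINH1, a collagen chaperone, was lower in KYSE30 at -0.25 and was at 0.13 in KYSE510 (adjusted p 0.11). Of other protease inhibitors of squamous epithelium, 2 of 8 tested were lower in KYSE30, SLPI at -1.61 and CST6 at -0.48, and 2 of 9 in KYSE510, CST3 at -0.48 and PI3 at -0.79. None was higher in either line (0 and 0 unadjusted), and the medians were -0.07 and -0.11. CSTA, the cystatin of cornified cells, had a mean of 3.04 in KYSE30 and 2248 in KYSE510, a gap between the lines of the kind seen for SERPINB3, SERPINB4 and SERPINB13. Other members of this list had gaps the other way: CST6 had means of 676 in KYSE30 and 0.255 in KYSE510, and SPINK5 had 233 and 45.8.

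Transcription factors chosen as possible regulators of clade B serpin genes gave different counts in the lines. Of 14 tested, 5 were higher and 5 lower in KYSE30, and 0 were higher and 5 lower in KYSE510 (0 and 5 unadjusted), with medians of 0.11 and -0.09. All genes tested gave 13.9% higher and 15.7% lower in KYSE30, and 7.89% and 10.8% in KYSE510. FOSL1, a FOS-family subunit of AP-1, had normalized counts of 1203 and 1203 against 700 and 743 in KYSE30 and 1064 and 1105 against 1942 and 1834 in KYSE510. Its log2 fold changes were 0.74 (SE 0.08) and -0.80 (SE 0.09), which differed by -1.54 (KYSE510 less KYSE30, SE 0.12, adjusted p 5.04e-37). JUN, its partner, was at 0.07 (adjusted p 0.57) in KYSE30 and lower in KYSE510 at -0.38. JUNB was lower in KYSE30 at -0.17 (adjusted p 0.0111) and was at -0.09 in KYSE510 (adjusted p 0.21). FOS was at 0.31 and -0.30 and was called in neither line (adjusted p 0.19 and 0.38). TP63 was lower in both lines at -0.89 (SE 0.05) and -0.44 (SE 0.04), and ELF3, an epithelial ETS factor, was lower in both at -0.31 and -0.33. Whether any of these factors has a part in the SERPINB values was not tested.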

How the data were processed

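RNA-seq of KYSE30 and KYSE510 cells with shLHX2 or shNC gave 2 libraries per group and line. Per the labels, reads were placed on hg38 and the authors compared groups with DESeq. The sources used here do not name the aligner or the counter. The authors deposited 1 table per line. Its mean level is a signal that the authors made by dividing counts by size factors and averaging the 4 libraries of the line. The deposited fold change and its SE are on the log2 scale. The deposited Wald statistic is a score, and the authors' p-value is two-sided, with Benjamini-Hochberg adjustment over genes that pass a filter on mean level. The authors' columns have the names that DESeq2 gives. No count model was run, and their tests were read as they stand, with an adjusted p under 0.05 taken as a call.

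Reads per library were worked back in Python 3.11.15 (numpy 2.4.6, scipy 1.17.1) as the whole numbers that return the deposited values, after genes with 1 read had given the size factors. Below a mean level of 20 in KYSE30 and 10 in KYSE510 the mean alone was used. Above it the mean, fold change and SE were, with libraries of a group taken to lie within 2-fold of each other at high levels. The procedure was tested on simulated data of genes with means above 10, in which the size factors were taken as known. Errors in the size factors and reads of genes at lower means were therefore not covered. Libraries are printed in order of size factor, which need not be the order of the labels. Wilson and counting intervals are at 95% and cover counting error only. To compare the lines, the fold change of KYSE30 was taken from that of KYSE510 and divided by its SE, the root of both squared SEs added, and the two-sided normal p was adjusted by Benjamini-Hochberg.

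Gene positions and coding regions are those of GENCODE 29, and all IDs of both tables matched it. Promoters are from RefSeq (15 rows for the 10 members). Coding regions were aligned in pairs.

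The members and the 10 other lists (reference genes, other clade B serpins, serpins of other clades, proteases that are known or possible targets of clade B serpins, other protease inhibitors of squamous epithelium, neighbours of each cluster, squamous markers, markers of other cell types and regulators) were chosen with earlier results of these data known. Named genes are the members, every other SERPINB gene, each tested neighbour, up to 4 members of the other lists by smallest adjusted p, and SERPINE2. JUN, JUNB, FOS, KRT5, KRT14, CDH1, PERP, CTSL, CTSS, CSTA, SPINK5, PTPRC, SLC6A15 and the proteases without a row were chosen after their values were seen. Alternatives were a 1.5-fold limit, an adjusted p under 0.01, no filter on mean level, centring on the median of all tested or of 18 reference genes, the ratio of mean normalized counts and leaving out each library.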

Additional observations from a re-analysis of the deposited data

Results flagged for a closer look

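The change of SERPINB5 with shLHX2 differed between the lines. Its log2 fold change was 0.49 in KYSE30 and -0.26 in KYSE510, a difference of -0.75 (SE 0.11, z test of the fold changes, adjusted p 9.65e-11). Both shLHX2 libraries lay above both shNC libraries in KYSE30 and below them in KYSE510. The reads of LHX2 do not show its knockdown in KYSE510 at this depth, and the hairpin of each shLHX2 library is not stated.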

How the results depend on the processing

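With a change of at least 1.5-fold required, the count of members called higher in KYSE30 went from 1 to 0 and that of members called lower in KYSE510 from 2 to 0. At an adjusted p under 0.01 the KYSE510 count was also 0. The count whose response differed between the lines was 1 under each threshold, filter and scaling alternative run. Of the 18 reference genes, 11 were higher and 2 lower in KYSE30 and 6 higher and 1 lower in KYSE510 (medians 0.14 and 0.09). All genes tested gave 13.9% higher and 15.7% lower in KYSE30, and 7.89% and 10.8% in KYSE510. Centring on the reference genes turned the uncalled SERPINB8 value of KYSE30 to -0.10 (adjusted p 0.82). The same centring moved other uncalled values by over 1.5 times: to 0.14 for SERPINB1 and -0.19 for SERPINB6 in KYSE30, and to 0.07 for SERPINB1, 0.06 for SERPINB6, -0.15 for SERPINB3 and 0.00017 for SERPINB13 in KYSE510. SERPINB8 in KYSE30 was the 1 of 52 scaling, filter and estimate alternatives of single fold changes that changed sign. For SERPINB5 those alternatives gave 0.36 to 0.49 in KYSE30 and -0.35 to -0.26 in KYSE510, with an adjusted p in KYSE510 of 0.00078 to 0.044. Leaving out each library in turn gave 0.43 to 0.56 and -0.29 to -0.23 for SERPINB5, -0.29 to -0.21 for SERPINB4, -0.09 to 1.02 for SERPINB7 in KYSE30 and -0.10 to 0.15 for SERPINB8 in KYSE30, which are values with no test, and 11 of 13 fold changes kept their sign. No paired analysis was possible because the tables hold no column per library and the worked-back reads do not carry the replicate numbers of the labels. At the depth of KYSE30, changes of SERPINB7, SERPINB8 and SERPINB13 were not detectable unless large.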
